A study of Mus musculus with 17 samples.

Results

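The nuclear genes of the mitochondrial respiratory chain were read from arrays of ovary RNA in 4 mouse genotypes. Members were all genes whose symbol in the array annotation begins with Nduf, Uqcr, Sdh followed by a to d, Cox4 to Cox8, or Atp5, each read from its brightest detected probe. The rule found 91 genes on 142 probes. Placed by prefix alone, 44 symbols fell to complex I, 8 to complex II, 7 to complex III, 16 to complex IV and 16 to complex V. Of the 91, 86 were detected well enough to be tested among 12137 genes.

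The symbol prefixes also take in genes that are not subunits. Of the 86 tested members, 11 are assembly factors, which help to build a complex without staying in it (7 Ndufaf genes and 4 Sdhaf genes). Ndufs5-ps is a pseudogene, and Cox7a2l helps complexes III and IV to associate. The untested members were Cox7b2, Ndufaf6, Ndufs1 and Sdha, each detected on 0 of 16 arrays, and Cox8c, which was detected on 3. Ndufs1 and Sdha are core subunits that respiring cells need, so their readings describe these probes only.

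Complex I (NADH dehydrogenase) and complex II (succinate dehydrogenase) pass electrons to ubiquinone, complex III passes them to cytochrome c, and complex IV (cytochrome c oxidase) passes them to oxygen. Complexes I, III and IV pump protons as they do so, and complex V (ATP synthase) uses the gradient to make ATP. Several complex IV subunits exist as a common form and a form found mainly in heart and skeletal muscle, lung or testis. In steroid-making cells of the ovary, mitochondria also hold the first step of steroid synthesis, the cutting of the cholesterol side chain by Cyp11a1.

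The mice were females of a cross of FVB/N and C57/BL6, aged 12 weeks. The genotypes were Fshr-CAM/Lhr-null (5 arrays), Lhr-null (4), Fshr-CAM (4) and wild type (4). Fshr and Lhr are the receptors of the gonadotropins FSH and LH. The sources used here do not spell out CAM, the promoter of any transgene, or whether each array stands for a separate animal, so p-values reflect the spread among these arrays, which may be technical. Fshr log2 signal was 9.73 to 11.72 on Fshr-CAM/Lhr-null arrays, 9.14 to 9.92 on Lhr-null, 11.12 to 11.88 on Fshr-CAM and 8.35 to 9.16 on wild type arrays. There were 0 probes with the symbol Lhcgr, the gene of the LH receptor, so the Lhr-null label was not checked by its own transcript.

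The array labelled Lhr-null replicate 1 was left out of all fits unless stated. Pituitary hormone genes averaged a log2 signal of 13.73 there (7 of 8 listed genes measured, unfiltered), against 4.36 to 4.58 on the other 16. Its correlation with the others was 0.806 to 0.827 over 12260 genes, and 0.909 to 0.988 among the rest over 12137 genes, which are not independent replicates. Of 87 members in the normalisation of all 17 arrays, 30 (34.5%) lay below and 5 (5.75%) above the range of the other 16 on this array, and of all genes 29.6% lay below and 24.2% above. Per array, 19366 to 22006 of 45281 probes were detected, and precision is set by how many arrays there are.

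Values below are log2 signals after background correction and quantile normalisation, and a difference of 1 is a factor of 2. Signals of different probes are not compared with each other. An adjusted p is from limma's moderated test with Benjamini-Hochberg adjustment over all 12137 genes, with a threshold of 0.05. Within a genotype the median standard deviation of the 86 tested members was 0.15, against 0.24 for all genes tested, but 10 of them (11.6%) had one over 0.5, against 12.2% of all genes.

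The question of the first comparison is how ovaries without Lhr differ from wild type ones in these genes. In Lhr-null ovaries 7 of the 86 members were lower and 0 were higher. The lower ones were the tissue isoforms Cox7a1 and Cox4i2, the subunits Cox6a1, Ndufa1, Sdhb and Sdhc, and the assembly factor Sdhaf1. This is 8.14% of the members, while 6.9% of all genes tested were called lower and 5.5% higher, so the share of calls lay near that of all genes. At an unadjusted p under 0.05 there were 20 members (23.3%), 18 of them lower, against 28.7% of all genes, 14.7% lower. Most members are bright: 55 had a mean log2 signal over 10, and 4 of these (7.27%) were called lower, against 9.2% of the 2075 genes this bright. The median fold change of the members was -0.10 on the log2 scale and 59 of 86 (68.6%) lay below 0, against a median of -0.0036 and 50.4% below 0 for all genes. Arrays did not overlap for 13 members that were lower (15.1%) and 1 that was higher, where 12.7% of all genes were lower and 12.1% higher without overlap.

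Complex IV held the largest change. Cox7a1, the heart and muscle form of subunit VIIa, had log2 signals of 8.03, 8.11 and 8.03 on the 3 Lhr-null arrays, against 9.90, 9.58, 9.94 and 8.69 on wild type arrays. All Lhr-null arrays lay below all wild type arrays, and the wild type arrays were the more scattered. The difference was -1.47 ± 0.30 (SE; adjusted p = 0.00473 by limma), a 2.77-fold lower signal, and it passed the threshold in all 27 alternatives tried, at -1.79 to -1.31. Cox7a2, the common form of the same subunit, did not pass, with a difference of -0.03 ± 0.27 (adjusted p = 0.96 by limma).

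For Cox7a1, Fshr-CAM/Lhr-null arrays read 8.60, 8.18, 8.05, 8.04 and 7.97, and Fshr-CAM arrays 9.75, 9.03, 8.87 and 8.42. The Fshr-CAM/Lhr-null values overlapped those of Lhr-null, and all but 1 lay below all Fshr-CAM values. By mean, from low to high, the order was Lhr-null at 8.06 ± 0.04, Fshr-CAM/Lhr-null at 8.17 ± 0.25, Fshr-CAM at 9.02 ± 0.55 and wild type at 9.53 ± 0.58 (SD; n = 3, 5, 4 and 4). Neighbours in this order were not separated by a test: Fshr-CAM against wild type gave -0.51 ± 0.27 (adjusted p = 0.892 by limma), Fshr-CAM/Lhr-null minus Fshr-CAM was -0.85 ± 0.26 (adjusted p = 0.107), and Fshr-CAM/Lhr-null minus Lhr-null was 0.11 ± 0.28 (adjusted p = 0.916). Fshr-CAM/Lhr-null fell below Fshr-CAM past the threshold without Fshr-CAM replicate 4, without wild type replicate 4 and with median-centred signals (adjusted p from 0.0322 to 0.391 over the alternatives).

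The stretch before the transcript start is printed for Cox7a1, for its common partner Cox7a2 and for Cox6a1, which was also lower, because Cox7a1 was called and Cox7a2 was not, and Cox6a1 carries 2 of the motifs searched. Each is the 250 bases before the start in RefSeq on GRCm38.p6, read 5′ to 3′ along the gene. Cox7a1 lies at chr7:30183921-30184170 on the plus strand, Cox7a2 at chr9:79759854-79760103 and Cox6a1 at chr5:115348959-115349208, both on the minus strand. Capitals mark matches to the motifs.
Cox7a1: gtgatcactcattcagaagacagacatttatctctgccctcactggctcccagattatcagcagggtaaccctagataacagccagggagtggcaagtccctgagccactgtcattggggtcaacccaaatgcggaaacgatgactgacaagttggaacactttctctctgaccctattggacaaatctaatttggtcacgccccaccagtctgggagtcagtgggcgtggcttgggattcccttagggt
Cox7a2: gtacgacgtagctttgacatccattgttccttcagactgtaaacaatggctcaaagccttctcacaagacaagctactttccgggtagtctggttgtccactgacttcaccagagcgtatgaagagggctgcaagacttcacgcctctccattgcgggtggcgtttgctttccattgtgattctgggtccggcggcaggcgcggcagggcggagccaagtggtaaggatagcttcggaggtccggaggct
Cox6a1: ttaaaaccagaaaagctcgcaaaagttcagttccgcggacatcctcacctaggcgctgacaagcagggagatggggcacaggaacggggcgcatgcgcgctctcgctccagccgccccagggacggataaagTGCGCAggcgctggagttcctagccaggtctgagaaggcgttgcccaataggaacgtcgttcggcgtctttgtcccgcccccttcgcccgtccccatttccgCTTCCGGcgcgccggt

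The motifs, searched on both strands, were the NRF1 core TGCGCA and the ETS site CCGGAAG (bound by NRF1 and by NRF2/GABP, regulators of many respiratory genes), the ERR and NR5A core AAGGTCA, the YY1 site AAGATGGCG and the cAMP response element TGACGTCA. No motif overlaps another in the printed stretches. Cox6a1 has TGCGCA beginning 118 bases before the start and CCGGAAG on the opposite strand, its match beginning 16 bases before it. None of the 5 occurs in the printed stretch of Cox7a1 or Cox7a2. Of the 76 members with a promoter in the table, TGCGCA occurs in 21.1% and CCGGAAG in 19.7%, against 6.66% and 7.05% of all 27025 promoters there. AAGGTCA occurs in 5.26% of member promoters and 4.05% of all, TGACGTCA in 5.26% and 1.62%, and AAGATGGCG in 0% and 0.607%. Of the 5 called members with a promoter in the table, 1 holds TGCGCA, 1 holds CCGGAAG and 0 hold any of the other 3.

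Cox4i2, a form of subunit IV found mainly in lung, was dim. It read 4.69, 5.15 and 5.05 on Lhr-null arrays, where 2 of 3 detected it, against 5.53, 5.47, 5.84 and 5.49 on wild type arrays, where all 4 did. The groups did not overlap, and the difference was -0.62 ± 0.16 (adjusted p = 0.0203 by limma). Its size depends on the background, which 1 Lhr-null array did not exceed. It was also lost without wild type replicate 3 or Lhr-null replicate 2. The common form Cox4i1 read 13.10, 12.82 and 12.99 on Lhr-null arrays and 13.05, 12.95, 13.15 and 12.91 on wild type arrays, and did not pass (-0.05 ± 0.11, adjusted p = 0.83).

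Cox6a1, the common form of subunit VIa, read 12.72, 12.55 and 12.55 on Lhr-null arrays, against 12.96, 13.07, 13.12 and 12.98 on wild type arrays. The groups did not overlap and differed by -0.43 ± 0.11 (adjusted p = 0.0163 by limma), or 1.34-fold. Another Cox6a1 probe differed by -0.45 ± 0.15 and missed the threshold (adjusted p = 0.0601 by limma over 19437 probes). The call was lost without Lhr-null replicate 3 or 4, and that of Ndufa1 without Lhr-null replicate 4 or wild type replicate 2. Cox6a2, the heart and muscle form, read 6.54, 6.71 and 4.69 on Lhr-null replicates 2, 3 and 4, against 5.00, 5.42, 5.20 and 5.25 on wild type arrays. Of the Lhr-null arrays 2 lay above all wild type arrays and 1 below, and the difference was 0.76 ± 0.40 (adjusted p = 0.23 by limma). Without Lhr-null replicate 4, Cox6a2 passed the threshold as higher (1.41, adjusted p = 0.0134, against adjusted p up to 0.688 over the alternatives). The striated muscle markers, given below with the other marker lists, averaged 5.70, 5.40 and 5.40 on Lhr-null replicates 2, 3 and 4. On wild type arrays they averaged 4.68 to 4.72. Of the 9 listed marker genes 4 were detected on some Lhr-null array, and Cox6a2 was detected on 2 of the 3 Lhr-null arrays. The part of these markers in the Cox6a2 signal was not tested.

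**Figure D1:**
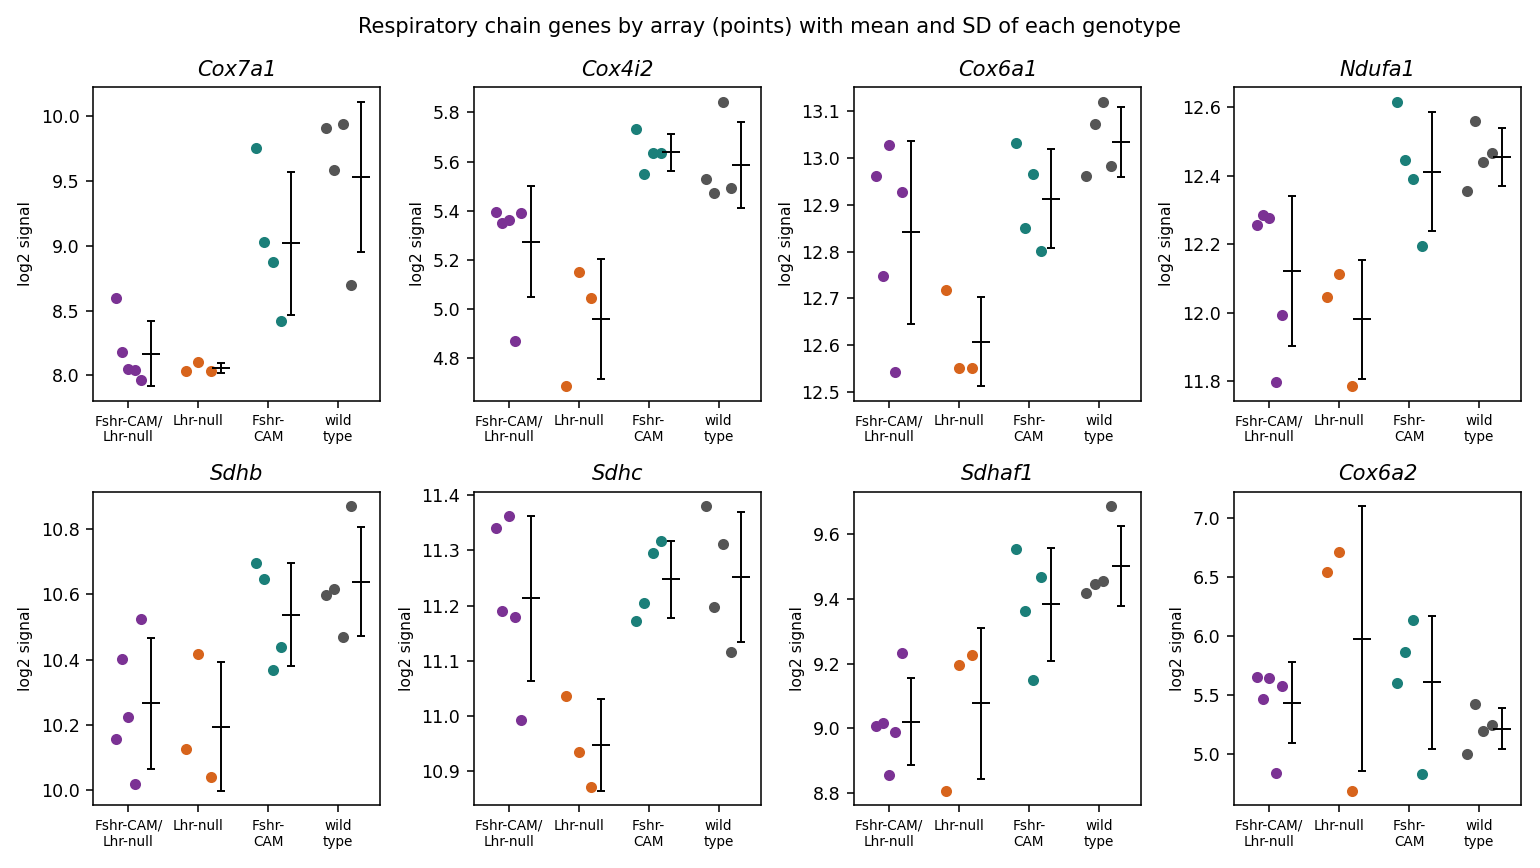
Log2 signal (vertical axis) of the 7 members called in Lhr-null against wild type, and of Cox6a2, on each of 16 arrays (points) by genotype, with the mean and SD beside them; each panel has its own axis. Cox7a1 lies between 8.03 and 8.11 on the Lhr-null arrays, below all wild type arrays, and the Lhr-null arrays of Cox6a2 lie on both sides of the wild type ones.

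Among the other tissue isoforms of complex IV, Cox8b, the heart and muscle form of subunit VIII, was detected on 2 of 3 Lhr-null arrays and on 0 of 4 wild type arrays, and no fold is given because its mean did not exceed the floor of detection. Cox6b2, the testis form of subunit VIb, read 7.99, 7.51 and 7.67 on Lhr-null arrays, against 6.95, 7.51, 7.36 and 7.67 on wild type arrays, with overlap (0.35 ± 0.18, adjusted p = 0.21 by limma).

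Cox8c, the testis form of subunit VIII, missed the filter and was not tested with the rest. It read 11.97, 5.02 and 5.94 on Lhr-null replicates 2, 3 and 4, and 4.33 to 4.54 on wild type arrays, none of which detected it. The mean signal was at least 6.47-fold higher in Lhr-null than in wild type ovaries, a bound set by the lowest detected signal. That bound rests on Lhr-null replicate 2, and without it the signal was at least 1.44-fold higher. In a fit without the filter the difference was 3.22 ± 1.05 (adjusted p = 0.0807 over 19057 genes by limma). The sperm and spermatid markers (7 of 8 listed genes measured, all 7 detected on some Lhr-null array) averaged 9.33, 5.78 and 6.10 on the same arrays in the same order, against 4.84 to 5.62 on wild type arrays. Their part in the Cox8c signal was not tested.

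Of the other complex IV members, none passed. Cox7a2l was the 1 member higher without overlap, at 11.16, 11.15 and 11.29 on Lhr-null arrays, against 11.15, 10.99, 10.92 and 10.86 on wild type arrays, and its difference of 0.22 ± 0.10 did not pass (adjusted p = 0.17 by limma). Cox5a, a core subunit, differed by -0.11 ± 0.11 (adjusted p = 0.58).

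The counts for complexes I, II, III and V are read against the 12.4% of all genes called in this comparison, 6.9% lower and 5.5% higher. In complex I, 1 of 42 tested members was called. Its 34 subunits by prefix, without assembly factors and pseudogene, had a median of -0.12 with 24 below 0. Ndufa1, a small membrane subunit encoded on the X chromosome, read 12.05, 12.11 and 11.79 on Lhr-null arrays, against 12.35, 12.56, 12.44 and 12.47 on wild type arrays. The groups did not overlap and differed by -0.47 ± 0.13 (adjusted p = 0.0253 by limma), or 1.39-fold. Ndufv1, which carries the NADH-binding site, read 12.18, 11.90 and 11.96 on Lhr-null arrays and 11.86, 11.80, 12.10 and 11.91 on wild type arrays, with overlap (0.10 ± 0.09, adjusted p = 0.53).

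In complex II, 3 of 7 tested members were called lower, and their median was -0.30. Sdhb, the iron-sulfur subunit, read 10.13, 10.42 and 10.04 on Lhr-null arrays, against 10.60, 10.62, 10.47 and 10.87 on wild type arrays (-0.44 ± 0.14, adjusted p = 0.044 by limma). Sdhc, a membrane anchor, read 11.04, 10.93 and 10.87 on Lhr-null arrays, against 11.38, 11.20, 11.31 and 11.12 on wild type arrays (-0.30 ± 0.10, adjusted p = 0.0481). Sdhaf1, which helps to load iron-sulfur clusters into Sdhb, read 8.81, 9.20 and 9.23 on Lhr-null arrays, against 9.42, 9.45, 9.46 and 9.69 on wild type arrays (-0.43 ± 0.13, adjusted p = 0.0439). None of the 3 overlapped between the groups, but their calls lay close to the threshold.

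Those 3 calls were lost in most alternatives. Sdhb remained called in 11, Sdhc in 10 and Sdhaf1 in 9 of 27, whereas Cox4i2, Cox6a1 and Ndufa1 each remained called in 24 of 27, and all kept their direction. Another Sdhb probe differed by -0.57 ± 0.16 and a dim one by -0.10 ± 0.21, while another Sdhaf1 probe gave -0.42 ± 0.17 (adjusted p = 0.116 by limma over 19437 probes). Sdhd, the other membrane anchor, did not pass (-0.13 ± 0.49, adjusted p = 0.90 by limma), and the catalytic subunit Sdha was not detected.

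In complex III, 0 of 7 and in complex V, 0 of 16 tested members were called. The medians were 0.0076 and -0.06. Uqcrc1, a core subunit of complex III, read 11.09, 10.85 and 10.94 on Lhr-null arrays, against 10.99, 10.80, 11.08 and 10.93 on wild type arrays (0.01 ± 0.09, adjusted p = 0.97 by limma). Uqcrfs1, the Rieske iron-sulfur subunit, was detected on 1 of 3 Lhr-null arrays and 3 of 4 wild type arrays (-0.20 ± 0.19, adjusted p = 0.54). Atp5b, the catalytic beta subunit of ATP synthase, read 14.38, 14.01 and 14.21 on Lhr-null arrays and 14.39, 14.37, 14.34 and 14.18 on wild type arrays (-0.12 ± 0.09, adjusted p = 0.42). The complex V member with the largest difference was Atp5g2, a gene of the membrane ring subunit c, at 9.59, 10.34 and 9.74 on Lhr-null arrays and 10.47, 10.38, 10.65 and 10.06 on wild type arrays, with overlap (-0.50 ± 0.17, adjusted p = 0.073). It was singled out after its values were seen.

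**Figure D2:**
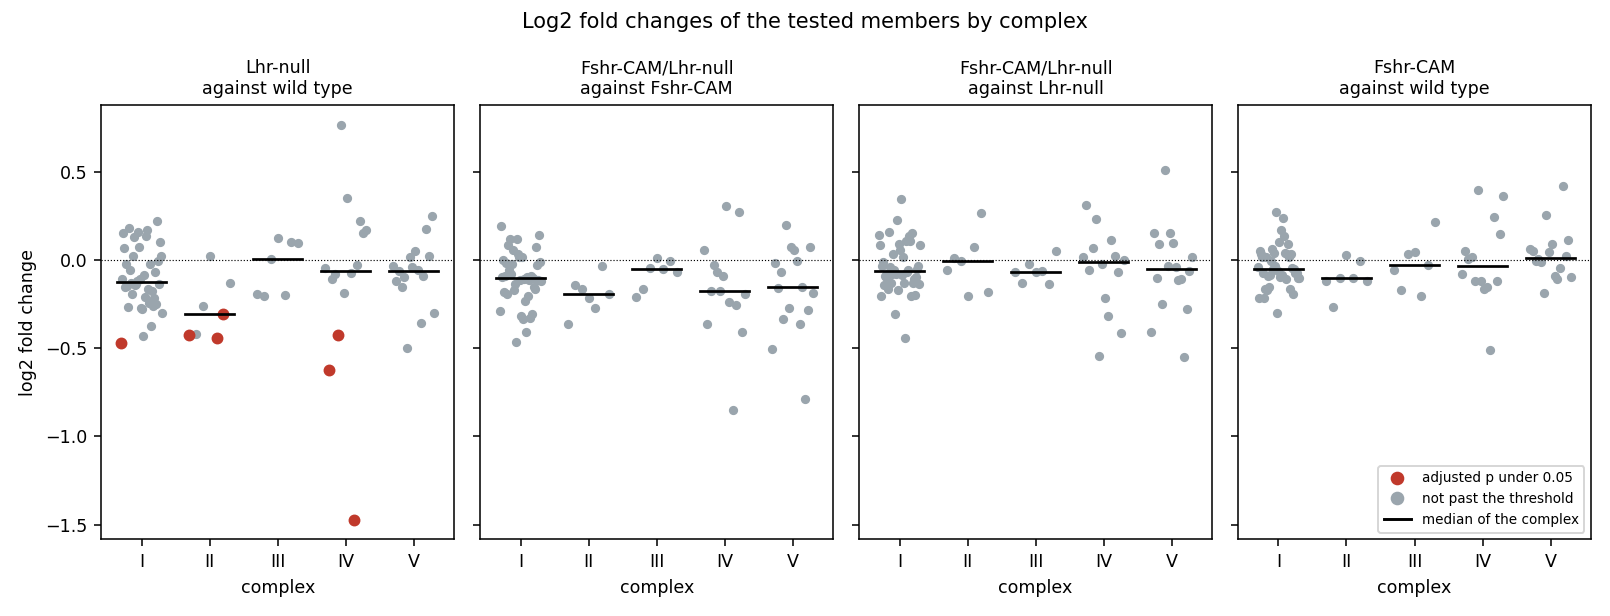
Log2 fold change (vertical axis) of each of the 86 tested members by complex (horizontal axis) in 4 comparisons, with the median of each complex as a line. The 7 called members (red) all lie below 0 in Lhr-null against wild type, and the other panels hold 0 called members.

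Some marker lists of ovarian and other cells differed between the same groups, and others overlapped. The corpus luteum list (5 of 7 genes measured, 3 of them detected on some Lhr-null array) averaged 5.59 to 6.16 on Lhr-null arrays, against 9.25 to 11.04 on wild type arrays. The oviduct and cilia list (5 of 5) averaged 7.47 to 9.94 on Lhr-null arrays, against 5.20 to 5.43 on wild type arrays. The white or brown adipocyte list (8 of 8 measured, Fabp4 and Ucp1 undetected on every array) averaged 6.60 to 6.71 on Lhr-null arrays, against 5.46 to 5.94 on wild type arrays. The striated muscle list (9 of 9 measured, Acta1, Ckm, Myh1, Myh4 and Tnnt3 undetected on every array) averaged 5.40 to 5.70 on Lhr-null arrays and 4.68 to 4.72 on wild type arrays. The oocyte list (8 of 8 measured, Zp2 undetected on every array) averaged 9.32 to 9.56 on Lhr-null arrays, against 8.42 to 9.10 on wild type arrays. The endothelial list (5 of 5) was lower, at 6.98 to 7.28 on Lhr-null arrays, against 7.51 to 8.03 on wild type arrays. None of these 6 lists overlapped between Lhr-null and wild type arrays, but other lists did. Granulosa cell markers averaged 10.07 to 10.63 on Lhr-null arrays, against 9.35 to 10.13 on wild type arrays. Theca and interstitial cell markers averaged 8.98 to 9.63, against 8.58 to 9.14. The smooth muscle list averaged 8.79 to 9.11, against 8.62 to 8.96, and the macrophage list 8.04 to 8.97, against 8.30 to 9.31. On Fshr-CAM/Lhr-null arrays the corpus luteum list averaged 5.61 to 5.99, against 8.14 to 10.57 on Fshr-CAM arrays, and the striated muscle list 5.04 to 5.65, against 4.64 to 4.79. The oviduct and cilia, adipocyte, oocyte and endothelial lists overlapped between these 2 genotypes. The part of these lists in the differences of the members was not tested. In whole-ovary RNA, fewer cells of a type and less RNA per cell cannot be told apart.

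Genes around the respiratory chain give the setting. Of 5 tested genes of cholesterol side-chain cleavage, 4 were lower in Lhr-null than in wild type ovaries, where 6.9% of all genes were. Star, which brings cholesterol into mitochondria, differed by -4.86 ± 0.47 (adjusted p = 1.74e-05 by limma), Cyp11a1 by -2.69 ± 0.32 (adjusted p = 0.000102) and Tspo, an outer membrane protein, by -1.29 ± 0.25 (adjusted p = 0.00352). Star was detected on 2 of 3 Lhr-null arrays, so the size of its difference depends on the background. Fdx1, the ferredoxin that feeds electrons to Cyp11a1, was at background on all Lhr-null arrays and at least 1.47-fold lower there (adjusted p = 0.0304 by limma). It was detected on 3 of 4 wild type, 4 of 4 Fshr-CAM and 0 of 5 Fshr-CAM/Lhr-null arrays. It thus passed the filter only through the groups where it was high, which limits what its adjusted p can show.

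Among 39 tested assembly factors, 11 of which match the rule, 3 were lower in Lhr-null than in wild type ovaries and 0 higher. Of all genes 6.9% were lower and 5.5% higher. Beside Sdhaf1 these were Cox17, a copper chaperone (-0.66 ± 0.15, adjusted p = 0.0111 by limma), and Cox20, a chaperone of Cox2 (-0.73 ± 0.22, adjusted p = 0.0397). Among 17 regulators of mitochondrial biogenesis, read against the same shares of all genes, 1 was lower, the nuclear receptor Esrra (-0.60 ± 0.11, adjusted p = 0.00262). Among the regulators that did not pass, Nrf1 differed by 0.04 ± 0.10, Gabpa by -0.08 ± 0.16 and Tfam by 0.05 ± 0.12. Median differences of these 2 lists were -0.15 and 0.06.

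The lists of other metabolic pathways are read against the 12.4% of all genes called in Lhr-null against wild type, 6.9% lower and 5.5% higher. Here 1 of 17 genes listed for the tricarboxylic acid cycle was lower and 0 were higher. The lower one was Pcx (-1.74 ± 0.38, adjusted p = 0.0083 by limma), which was detected on 2 of 3 Lhr-null arrays. Its enzyme, pyruvate carboxylase, feeds the cycle and is not one of its steps, so no enzyme of the cycle itself was called. Of 14 genes of fatty acid oxidation 2 were lower, Cpt2 (-0.50 ± 0.09) and Acads (-0.46 ± 0.12). Of 15 carrier and import genes 2 were lower, the citrate carrier Slc25a1 (-0.63 ± 0.16) and the ATP synthase inhibitor Atpif1 (-0.44 ± 0.08). Of 6 antioxidant enzymes 2 were lower, Prdx3 (-0.83 ± 0.21) and Txn2 (-0.54 ± 0.16), and of 13 genes of cytochrome c and electron carriers 0 were called. Of 16 glycolysis genes 4 were lower, among them Pfkp (-0.67 ± 0.20) and Pgam1 (-0.53 ± 0.13), and 2 higher. The call of Pfkp held in 13, that of Txn2 in 16 and that of Cox20 in 14 of 27 alternatives. Of the 2 higher genes, Pgam2, the muscle phosphoglycerate mutase, was detected on 3 of 3 Lhr-null arrays and on 1 of 4 wild type arrays, so it passed the filter mainly through the group where it was high. Its Lhr-null arrays read 9.80, 5.13 and 6.33 and its wild type arrays 4.51 to 5.49, with overlap, and its call held in 5 of 26 alternatives.

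Of the subunits encoded in mitochondrial DNA, 8 had a tested probe. ND5, a complex I subunit, read 5.87, 6.14 and 5.46 on Lhr-null arrays, against 6.98, 6.06, 6.49 and 7.29 on wild type arrays. The groups overlapped by 1 array each, and the difference was -0.88 ± 0.25 (adjusted p = 0.0301 by limma), called in 17 of 27 alternatives. The other 7 were not called, and all 8 differences lay below 0.

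The same question was put in the presence of the Fshr mutation, with Fshr-CAM ovaries as the base. In Fshr-CAM/Lhr-null ovaries 0 of 86 members were called, where 1.66% of all genes were lower and 0.445% higher, 2.11% in all. At an unadjusted p under 0.05 there were 15 members (17.4%), 14 of them lower, against 18% of all genes, 8.03% lower. The members' median was -0.11 and 68 of 86 (79.1%) lay below 0, against a median of 0.02 and 46.2% below 0 for all genes. Arrays did not overlap for 3 members, all lower (3.49%), where 4.2% of all genes were lower and 3.19% higher without overlap.

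The lowest adjusted p in that comparison was that of Atp5mpl, a small membrane subunit of ATP synthase. It read 12.71, 12.70, 12.63, 12.77 and 12.56 on Fshr-CAM/Lhr-null arrays, against 13.07, 12.98, 12.81 and 12.96 on Fshr-CAM arrays. The arrays did not overlap, and the difference of -0.28 ± 0.08 missed the threshold (adjusted p = 0.073 by limma). Of the genes lower in Lhr-null, Cox4i2 read 5.40, 5.35, 5.36, 4.87 and 5.39 on Fshr-CAM/Lhr-null arrays, against 5.73, 5.55, 5.63 and 5.63 on Fshr-CAM arrays (-0.36 ± 0.14, adjusted p = 0.192). Cox6a1 differed by -0.07 ± 0.09 (adjusted p = 0.75), Ndufa1 by -0.29 ± 0.11 (adjusted p = 0.19), Sdhb by -0.27 ± 0.12 (adjusted p = 0.24), Sdhc by -0.03 ± 0.08 (adjusted p = 0.88) and Sdhaf1 by -0.36 ± 0.11 (adjusted p = 0.119). Of the side-chain cleavage genes 2 of 5 were lower, Star (-3.32) and Cyp11a1 (-1.20, adjusted p = 0.0377 by limma). The Cyp11a1 call held in 17 of 27 alternatives, with an adjusted p of up to 0.261.

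The member medians of both Lhr comparisons depended on how arrays were scaled. Signals were also only centred on each array's median, without background correction. Then 16 of 86 members were lower in Lhr-null than in wild type ovaries, where 7.85% of all genes were. In Fshr-CAM/Lhr-null against Fshr-CAM ovaries 15 of 86 were lower, where 4.9% of all genes were. In either comparison 0 members were higher. In that scaling the median of all genes was -0.07 and -0.12 in these comparisons, that of the brightest 25% of genes -0.16 and -0.22, and that of the members -0.28 and -0.35. With the authors' normalised values, members had medians of -0.08 and -0.11, and 7 and 0 were called lower, where 6.74% and 1.57% of all genes were.

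**Figure D3:**
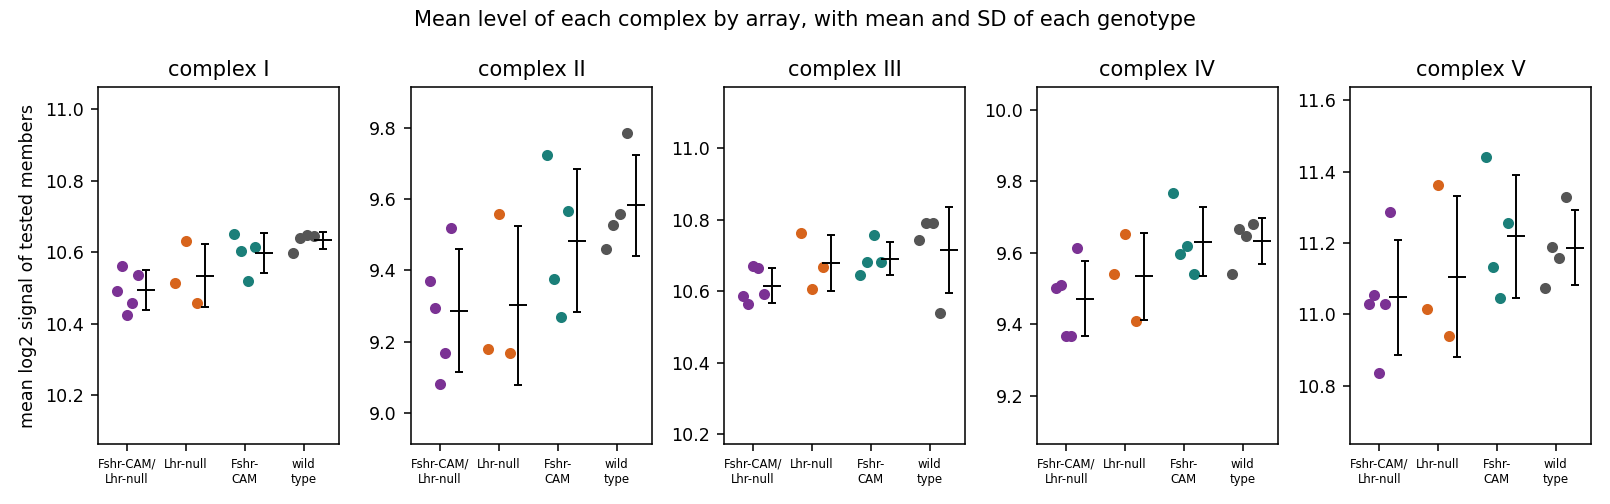
Mean log2 signal (vertical axis) of the tested members of each complex on each of 16 arrays (points) by genotype, with the mean and SD beside them; each axis spans 1 unit around the mean of its panel. Complex I means were 10.43 to 10.56 on Fshr-CAM/Lhr-null arrays and 10.52 to 10.65 on Fshr-CAM arrays, with overlap, and the 3 Lhr-null arrays of complex V span 10.94 to 11.36.

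The mean over all tested members was 10.24 to 10.45 on Fshr-CAM/Lhr-null, 10.29 to 10.52 on Lhr-null, 10.39 to 10.58 on Fshr-CAM and 10.43 to 10.54 on wild type arrays. The ranges of all pairs overlapped. In the plot of complex means by array, the Lhr-null and wild type ranges also overlap for each complex.

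Where Lhr is absent, the effect of the Fshr mutation is seen by setting Fshr-CAM/Lhr-null ovaries against Lhr-null ones. Of the 86 members 0 were called, where 0.569% of all genes were lower and 0.132% higher, 0.7% in all, and 4 (4.65%) had an unadjusted p under 0.05, against 13.1% of all genes. Arrays did not overlap for 3 members, all lower (3.49%), where 2.63% of all genes were lower and 5.27% higher without overlap. The members' median was -0.06 and 55 of 86 (64%) lay below 0, against 0.04 and 43.6% for all genes. The member with the largest rise was Atp5g2, at 10.26, 10.51, 10.46, 10.45 and 10.33 on Fshr-CAM/Lhr-null arrays, against 9.59, 10.34 and 9.74 on Lhr-null arrays, with overlap (0.51 ± 0.17, adjusted p = 0.204 by limma). Without Lhr-null replicate 3 it passed the threshold. Sdhc read 11.34, 11.19, 11.36, 11.18 and 10.99 on Fshr-CAM/Lhr-null arrays, with overlap (0.27 ± 0.09, adjusted p = 0.22). Cox8c was at 4.28 to 4.36 on Fshr-CAM/Lhr-null arrays, at least 6.32-fold lower than in Lhr-null, and at least 1.41-fold lower without Lhr-null replicate 2. ND5 was higher, at 6.60 to 7.18 on Fshr-CAM/Lhr-null arrays, against 5.46 to 6.14 on Lhr-null arrays (1.11 ± 0.24, adjusted p = 0.0436 by limma), a call kept in 9 of 27 alternatives.

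With Lhr present, the Fshr mutation was examined in Fshr-CAM against wild type ovaries. Of the 86 members 0 were called, where 0.033% of all genes were lower and 0.173% higher, 0.206% in all, and 4 (4.65%) had an unadjusted p under 0.05, against 6.06% of all genes. Arrays did not overlap for 1 member, which was lower (1.16%), where 1.42% of all genes were lower and 2.06% higher without overlap. The members' median was -0.04 and 50 of 86 (58.1%) lay below 0, against 0.0017 and 49.7% for all genes. Their differences ran from -0.51 (Cox7a1) to 0.42 (Atp5md, a small subunit of ATP synthase). Within 0.5 on the log2 scale of wild type lay 85 of 86 members. The interaction, which sets the Fshr-CAM difference without Lhr against that with it, called 0 of 86 members, where 0.198% of all genes were called, all lower, and 5 (5.81%) had an unadjusted p under 0.05, against 7.37% of all genes. It was 0.62 ± 0.39 for Cox7a1 (adjusted p = 0.783 by limma), so a difference in the Lhr-null effect between the 2 backgrounds was not shown.

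A pattern of deviations within genotypes ran through part of the members. The deviations of the 12051 other genes from their genotype means had a first principal component that took 24.6% of their variance. With these means taken out, the component could not follow genotype, and each genotype had to hold both higher and lower scores. Scores on it were highest on 1 array of each genotype: Fshr-CAM/Lhr-null replicate 5 (1.65), Lhr-null replicate 3 (1.46), Fshr-CAM replicate 1 (1.23) and wild type replicate 4 (1.49). The highest score of any other array was 0.336. The sign of the scores was set so that the member Ndufb9 correlated positively with them. The members' deviations correlated with these scores above 0.9 for 12 of 86 (14%), against 2.93% of all genes, over 16 arrays and with no test, since arrays are shared by all values and these members were picked out after their values were seen.

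The 12 were Cox7b (r = 0.978), Atp5e, Atp5a1, Ndufb4, Ndufb2, Atp5md, Ndufb9, Sdhd, Ndufb5, Sdhaf3, Cox7a2 and Ndufaf2. Atp5e, the epsilon subunit of ATP synthase, read 8.62 on Fshr-CAM/Lhr-null replicate 5, against 6.52 to 7.28 on the other 4 of that genotype. It read 8.86 on Lhr-null replicate 3, against 6.76 and 7.21 on the other 2, and 8.70 on wild type replicate 4, against 7.33 to 7.43 on the other 3. All 12 members had their highest signal of the genotype on the named array in Fshr-CAM/Lhr-null, Lhr-null and wild type, and 10 of 12 did in Fshr-CAM. Medians of the 12 lay 1.22 above the other arrays in Fshr-CAM/Lhr-null, 1.42 in Lhr-null, 1.04 in Fshr-CAM and 1.21 in wild type. These readings describe the size of the pattern only. The 12 were picked by their correlation with scores that are highest on these arrays, so high signals there follow largely from that choice.

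At the other end, 24 of 86 members (27.9%) correlated below -0.5 with the scores, against 19.4% of all genes, Cox6b1 the furthest. Below -0.9 lay 0 members and 18 of the 12137 genes tested. Ndufb9, a complex I subunit, had the largest standard deviation within genotypes of the 86 tested members, 0.868, and Cox6b1, a complex IV subunit on the side of the intermembrane space, the smallest, 0.0915. Cox7b and Cox6b1, both of complex IV, thus lay at opposite ends of this order.

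Probes of the same gene also parted on this axis. Of 27 members with more than 1 detected probe, 7 had 1 probe correlating above 0.9 and another below 0.5. For Atp5a1, the alpha subunit of ATP synthase, the brighter probe ran from 8.27 to 11.02 (r = 0.952) and the dimmer one from 6.78 to 7.74 (r = -0.091). The origin of the axis was not tested. Without the 4 arrays named, Lhr-null against wild type called 6 members. The share of all genes in that fit is not given, so this count is not a result about the members. In the same fit the Cox7a1 difference of Fshr-CAM against wild type was -1.04 (adjusted p = 0.0484 by limma, and up to 0.9999 over the other alternatives). That call did not stand on 16 arrays.

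**Figure D4:**
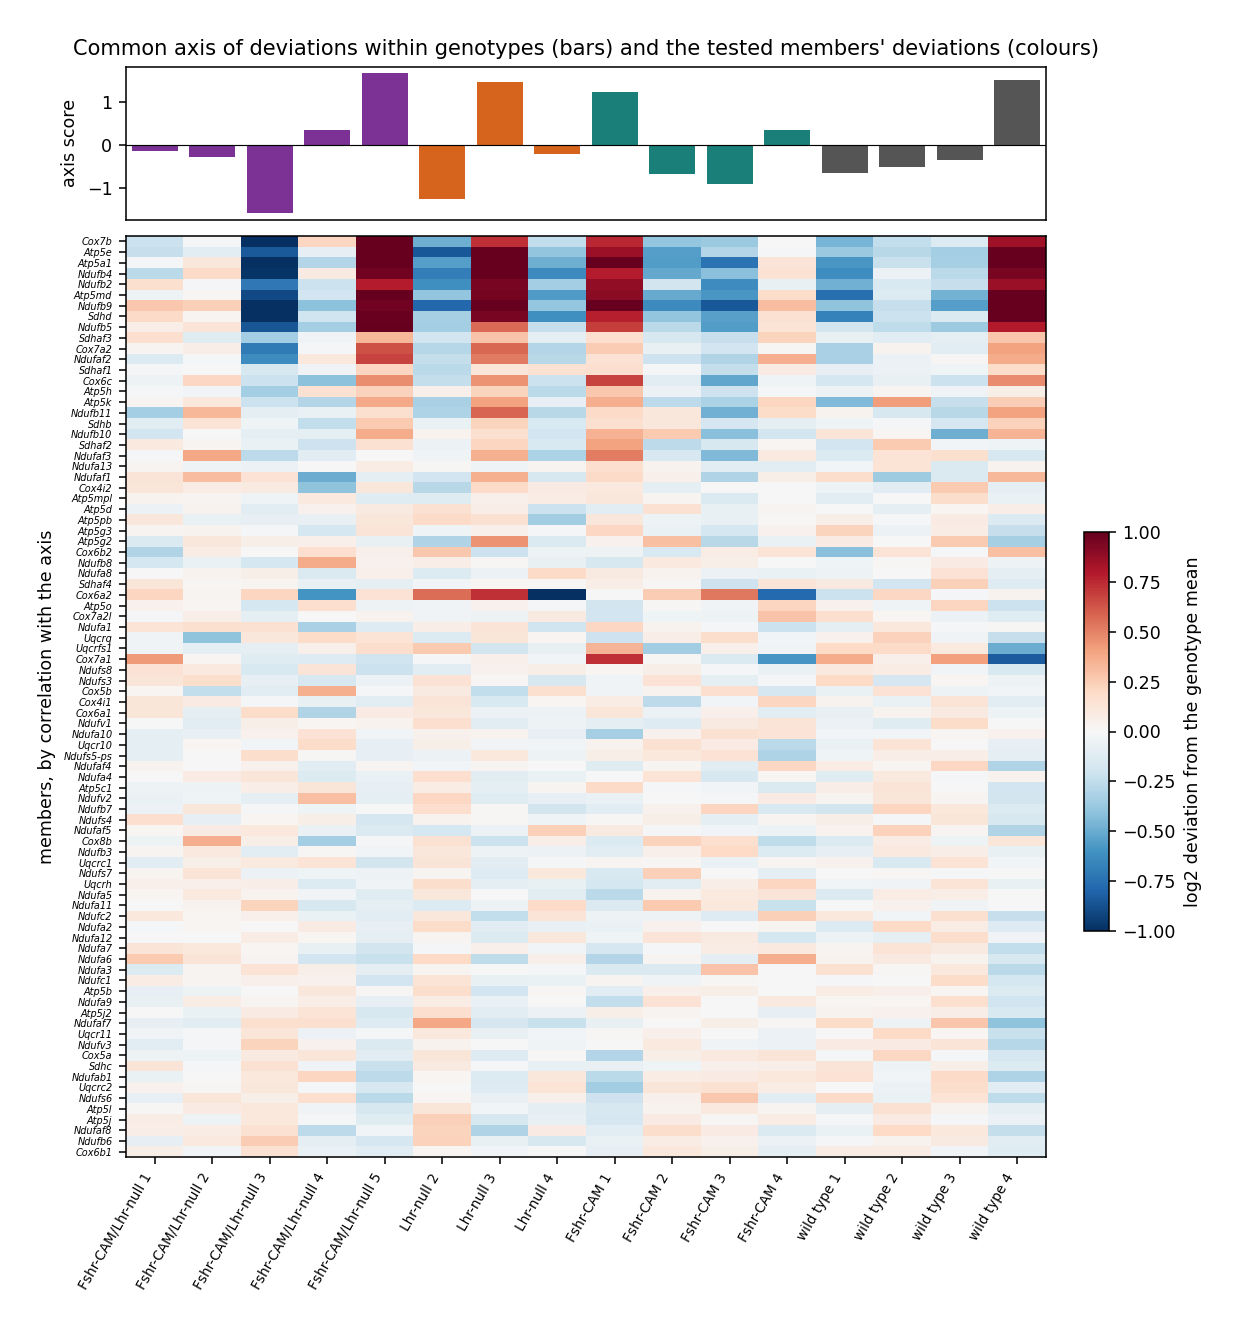
Top: score (vertical axis) of each of 16 arrays on the first principal component of deviations from genotype means over 12051 other genes. Bottom: log2 deviation of each of 86 tested members (rows, sorted by correlation with the score) from its genotype mean on the same arrays (columns), with colours saturating at 1 unit; 1 array of each genotype stands high for the 12 uppermost members, with scores of 1.65, 1.46, 1.23 and 1.49 from left to right.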

How the data were processed

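Total RNA was labelled as biotin-cRNA and read on Illumina arrays. Per the submitters' processing notes, the deposited values came from GenomeStudio 1.7.0. The main deposited table holds, per the file headers, a non-normalised average signal intensity for each of 45281 probes on 17 arrays, and a detection p-value for each. A further deposited table and the series matrix hold the same intensity after the authors' quantile normalisation, and differ from each other by at most 0.

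In R 4.3.3, limma 3.58.1 (neqc) corrected and normalised the signals of 16 arrays, taking the background from detection p-values, with an offset of 16, quantiles and log2. A probe was kept when 4 or more arrays had a detection p under 0.05, and the brightest kept probe stood for its gene. Genes came from the 34885 probes with 1 symbol in the array annotation; 18 had several and 10378 none, and these were left out. Models had 1 mean per genotype, eBayes with an intensity trend and Benjamini-Hochberg adjustment. The fit was checked on simulated data. No depth in reads applies, and the number of arrays sets the precision.

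The members, lists and comparisons, and leaving out Lhr-null replicate 1, were chosen with earlier results of these data known. Named by rule were the members with the largest calls (3 per complex and direction), tissue isoforms, complex II subunits, 8 core subunits, and up to 3 called genes per list. Genes named beyond that (Cox7a2, Cox7a2l, Atp5g2, Atp5mpl, Atp5md, Fdx1, Nrf1, Gabpa, Tfam and those of the common axis) were chosen after their values were seen. Fshr-CAM/Lhr-null against wild type was not tested. Replicate numbers were not used to pair samples in the main fit. Of 21 pairs of same-numbered arrays, 4 had correlated deviations above 0.1 (r from -0.467 to 0.321). Pairs with different numbers were not compared, so this check cannot exclude batches shared by number. Promoter sequences came from RefSeq on GRCm38.p6 (76 of 91 members matched). Figures were drawn with matplotlib 3.10.9. Alternatives are described in the closing section.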

Additional observations from a re-analysis of the deposited data

Results flagged for a closer look

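In groups of 4 or 5 arrays, a single array stood far from the rest of its group in 12 of 123 checks, where chance alone gives about 1 in 20. On Fshr-CAM/Lhr-null replicate 4, Cox4i2 read 4.87, against 5.35 to 5.40 on the other 4 arrays of that genotype, and Cox6a2 read 4.84, against 5.47 to 5.65. On the same array Cyp11a1 read 9.60, against 10.77 to 11.24, and Star 4.76, against 6.01 to 6.39. Star read 7.97 on Fshr-CAM replicate 4, against 9.51 to 9.74 on the other 3, and Cox5a 12.03 on Fshr-CAM replicate 1, against 12.38 to 12.45. Among wild type arrays, replicate 3 was high for Cox4i2 (5.84, against 5.47 to 5.53) and Slc25a1 (10.14, against 9.35 to 9.41). Replicate 2 was high for Pcx (7.63, against 6.23 to 6.34). Replicate 4 was high for Sdhaf1 (9.69, against 9.42 to 9.46) and low for Uqcrfs1 (4.52, against 5.11 to 5.21). The mean of complex I was 10.60 on replicate 1, against 10.64 to 10.65 on the other 3.

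Cox8c lay outside the fit because of the detection filter. It was detected on all 3 Lhr-null arrays, with a mean of 7.64 (5.48 without replicate 2), and on none of the other 13.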

How the results depend on the processing

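The 27 alternatives were single-array omissions (16), 17, 14 or only the compared arrays, 2 other scalings, 2 other filters, the mean of probes, array weights, the replicate block and, chosen after seeing the data, 12 arrays without the 4 highest on the common axis. The Cox8c bounds without Lhr-null replicate 2 were also added then. None of the results reversed. In Lhr-null against wild type, where 7 members were called, median-centred signals called 16, no detection filter 4, the replicate number as a block 4 and only the compared groups 3. Leaving out 1 array gave 3 to 8: 3 each without Lhr-null replicate 4 (2 lower, and Cox6a2 higher) and wild type replicate 2, and 4 each without Lhr-null replicate 2, wild type replicates 1 and 3, Fshr-CAM replicate 2 and, for Fshr-CAM/Lhr-null, replicates 1 and 2. The block changed no other count of members. In Fshr-CAM/Lhr-null against Fshr-CAM, where 0 were called, median-centred signals called 15, and leaving out 1 array gave 0 to 3: 1 without wild type replicate 4 (Cox7a1) and 3 without Fshr-CAM replicate 4 (Cox7a1, Cox7a2l and Uqcr10). In Fshr-CAM/Lhr-null against Lhr-null, leaving out 1 array gave 0 to 1 (Atp5g2, without Lhr-null replicate 3), and the 12 arrays gave 1, the same gene. In Fshr-CAM against wild type the 12 arrays gave 1 (Cox7a1). The interaction stayed at 0 in all alternatives run. For single genes over all comparisons, 2747 values kept their side of the threshold, 177 lost it and 6 gained it. With all 17 arrays, 5 of 87 members were lower in Lhr-null than in wild type, where 547 of 12260 genes were lower and 314 higher. For median-centred signals the shares of all genes are given with the scaling above. The other counts of this section stand without the share of all genes. They show how far the calls move and are not results about the members. The cause of these shifts was not tested. The file headers name no BeadChip, so the planned chip block was not run. Dim probes (Cox4i2, Cox8b, Uqcrfs1) are limited by the background.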
